A study of Mus musculus with 2 samples.

Results

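The microRNAs miR-322, miR-503, miR-351, miR-542 and miR-450 come from neighbouring genes on the mouse X chromosome. They were followed here in vesicles shed by 3T3-L1 adipocytes, and only miR-322 had every spot well above background in both collections. Its signal was 2.25-fold lower at day 8-10 than at day 2-4. miR-503 passed the detection rule used here at day 2-4 only and was at least 4.28-fold higher there. The other members lay at or below the edge of detection. The members were taken by name, as the 7 array entries mmu-miR-322, mmu-miR-503, mmu-miR-351, mmu-miR-542-5p, mmu-miR-542-3p, mmu-miR-450a-5p and mmu-miR-450a-3p of the 567 mouse miRNAs on the array. The set was chosen by name with the intensities of these same arrays in view, so every value is a description and not a test.

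The study compared RNA of microvesicles, small membrane vesicles released by cells, between an early and a late stage of fat cell formation. The 3T3-L1 line consists of mouse preadipocytes, which become lipid-storing after hormonal induction. Both groups were induced in high-glucose medium with 10% fetal calf serum by dexamethasone (0.25 µM), 3-isobutyl-1-methylxanthine (0.5 mM) and insulin (10 µg/ml). They differed only in the 48 h over which the medium was conditioned, day 2 to day 4 or day 8 to day 10, and vesicles were then pelleted by ultracentrifugation. The 3T3-L1 line stands for adipocytes in culture, and the part of the signal that comes from serum RNA was not tested. Each collection was hybridised to 1 array, from 100 ng of total RNA, so no difference has a replicate check or a p-value, and the number of arrays limits the precision. Preparation, array and stage cannot be told apart. A lower signal from the same amount of RNA also does not separate fewer vesicles that carry a miRNA from less of it in each vesicle.

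A miRNA is a short RNA that guides repression of messenger RNAs, which it finds mainly through its seed, bases 2 to 8 from its 5′ end. miR-322 and miR-503 carry seeds of the miR-15/16 type and are known to repress cyclins and other genes that drive the cell cycle. They are processed from a shared long transcript and are known for rising when muscle precursors leave the cell cycle. miR-351 carries the seed of miR-125, the mammalian relative of the worm lin-4 RNA. The genes of miR-542 and miR-450 follow on the same strand, and each of their hairpins can give a product from its 5′ and from its 3′ arm.

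The mature sequences show which members can act on the same targets, so they are given here from RefSeq (GRCm38.p6), 5′ to 3′, with the seed in capitals. All 7 members were matched.
miR-322: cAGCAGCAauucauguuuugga
miR-503: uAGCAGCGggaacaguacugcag
miR-351: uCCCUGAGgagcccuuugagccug
miR-542-5p: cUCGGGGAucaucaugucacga
miR-542-3p: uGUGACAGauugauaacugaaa
miR-450a-5p: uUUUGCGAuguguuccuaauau
miR-450a-3p: aUUGGGGAugcuuugcauucau
The seeds of miR-322 and miR-503 share 6 of 7 bases and differ by A8G, counted from the 5′ end with the miR-322 base first. The seeds of miR-542-5p and miR-450a-3p, products of different hairpins, also share 6 of 7 bases and differ by C3U. The seeds of miR-503, miR-542-3p, miR-450a-5p and miR-450a-3p were each found in that entry alone among 1679 RefSeq mature names. The seed of miR-322 was found in 10 names, and that of miR-351 in 5.

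The seed partners measured on the same arrays are shown because they allow a comparison within each array. miR-15a, miR-15b, miR-16, miR-195 and miR-497 share all 7 seed bases with miR-322, and miR-125a-5p and miR-125b-5p share all 7 with miR-351.
miR-15a: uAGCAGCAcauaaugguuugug
miR-15b: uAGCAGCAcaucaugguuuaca
miR-16: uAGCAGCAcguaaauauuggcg
miR-195: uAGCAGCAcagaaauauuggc
miR-497: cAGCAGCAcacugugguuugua
miR-125a-5p: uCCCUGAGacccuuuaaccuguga
miR-125b-5p: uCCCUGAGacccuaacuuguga

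The files place the target stretches of the 7 members on chromosome X between 50401383 and 50407504, a span of 6122 bases. No source used here names the genome build of these positions. In these coordinates the longest stretch of miR-322 runs from 50407483 to 50407504, that of miR-503 from 50407204 to 50407219, and that of miR-351 from 50406492 to 50406507. The longest stretch of miR-542-5p runs from 50402630 to 50402648, that of miR-542-3p from 50402592 to 50402613, that of miR-450a-3p from 50401481 to 50401500, and that of miR-450a-5p from 50401383 to 50401402. For 7 of 7 members the distance to miR-322 equalled the distance between the mature miRNAs in RefSeq, where all lie on the minus strand. The stretches of a member share their lower coordinate and so begin at the 3′ end of the miRNA. By this spacing the array's miR-450a-3p stands at the gene Mir450-2 and not at Mir450-1, whose 3′ product has another seed (G7A). miR-450a-5p can come from either gene. In the GRCm38.p6 gene table Mir322, Mir503 and Mir351 lie inside the long noncoding RNA gene C430049B03Rik, whereas Mir542, Mir450-2, Mir450-1 and Mir450b lie outside it.

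Each member was read by 2 or 4 probes with target stretches of different length, printed as 5 or 10 spots each, 140 spots of 20 probes per array. Intensities are the processed spot signals in linear units after background subtraction. The 660 and 656 negative control spots averaged -0.288 ± 0.983 at day 2-4 and -0.326 ± 1.02 at day 8-10 (SD over spots), with a 99th percentile of 1.92 and 2.15. A probe was called detected where more than 0.5 of its spots were well above background by the scanner software's flag. A miRNA was called detected when any of its probes was. No spot was saturated. Spots of an array are technical repeats of the same RNA, so their SD says nothing about variation between preparations. Spots that do not overlap between the collections likewise describe these arrays only, and their share over all probes was not counted. Non-members separated too, as miR-15a did on its 21-base stretch (35.4 to 42.9 early, 63.2 to 73.5 late). So did miR-125b-5p on its 17-base stretch (541 to 591 early, 390 to 412 late), at a scaled difference of only 1.26-fold. Separation of spots is therefore not particular to the members. On its 17-base stretch miR-16 overlapped (38.5 to 45.6 early, 40.1 to 48.2 late).

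Of the 7 members, 6 were detected at day 2-4 and 3 at day 8-10. Over all 567 mouse miRNAs the detected share was 27.5% at day 2-4 and 29.3% at day 8-10, so the whole array did not lose detections between the collections. By probe, 7 of the 20 were detected at day 2-4 and 4 at day 8-10. By spot, after outlier spots were left out, 53 were well above background at day 2-4 and 26 at day 8-10. The shares over all mouse probes and spots were not counted, so these counts only describe the members. The counts depended on the detection rule. Where every spot had to be well above background they were 3 and 1, and where 1 spot was enough they were 6 and 5. The shares over all mouse miRNAs at each stage were not counted under these other rules. The scanner software's own gene flag, set for 32.5% and 34.2% of all mouse miRNAs, was set for the same 6 members at day 2-4. At day 8-10 it was set for miR-322, miR-503, miR-542-5p, miR-542-3p and miR-450a-3p.

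**Figure D1:**
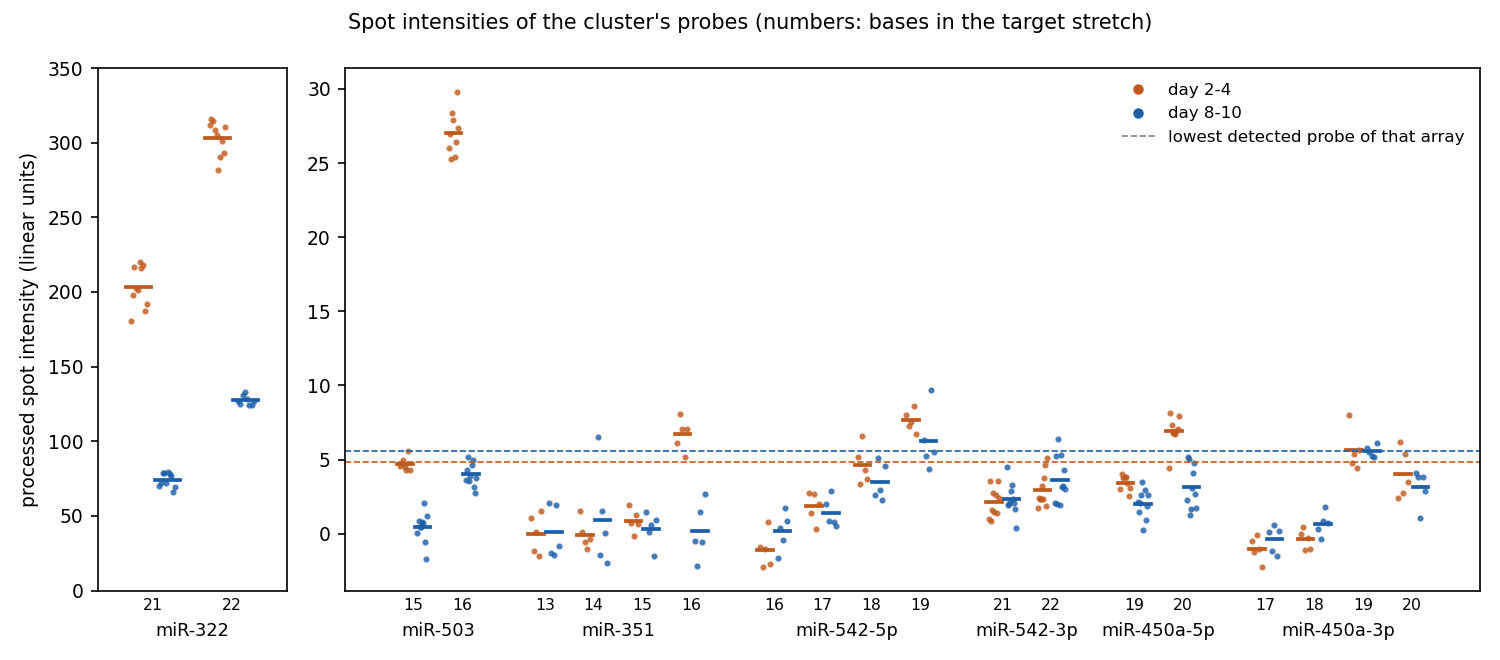
Processed intensity (linear units) of every spot of the 7 members that was not an outlier, by probe, at day 2-4 and day 8-10. Short bars are probe means, the number under each probe is the length of its target stretch in bases, and dashed lines mark the lowest detected probe of each array (4.86 and 5.55). The spots shown of miR-322, of both miR-503 probes and of the 16-base miR-351 probe do not overlap between the collections. For the shorter miR-503 probe this holds only without its outlier spots.

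miR-322, a repressor of cell cycle genes, had 20 of 20 spots well above background at day 2-4 and 18 of 18 at day 8-10. Its probe with the 21-base stretch gave 203 ± 14.1 (SD, 10 spots) at day 2-4, with spots from 181 through a median of 202 to 220. At day 8-10 the same probe gave 74.1 ± 4.84 (SD, 10 spots), from 66.0 through 74.5 to 79.6. The spots of the collections did not overlap, as was also so for some non-members, and every early spot was the brighter. The probe with the 22-base stretch gave 303 ± 11.4 (SD, 10 spots) at day 2-4, from 282 through 307 to 316. The late spots gave 127.6 ± 3.30 (SD, 8 spots), from 124 through 127 to 133.3, again without overlap. Before any scaling, the early signal was 2.74 times the late one on the shorter stretch and 2.38 times on the longer.

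Each array was then divided by the 75th percentile of the 279 probes detected on both arrays, 108 at day 2-4 and 95.2 at day 8-10. On this scale the log2 difference, day 8-10 minus day 2-4, was -1.27 (spot SE 0.043) for the 21-base and -1.06 (spot SE 0.022) for the 22-base probe of miR-322. Both probes thus moved the same way, by 2.41-fold and 2.09-fold. Their mean was -1.17 (spot SE 0.024), from a scaled log2 signal of 1.20 to one of 0.031. Detected on both arrays were 3 members and 142 other miRNAs. Among them the background for a loss of this kind, at least 2-fold and over 2 spot standard errors, was 12 miRNAs or 8.28%. miR-322 was among those 12, and 10 miRNAs had a lower difference. With the percentile taken over all probes 29 miRNAs were lower and 10 higher, against 12 lower and 24 higher (16.6%) in the main setting, and miR-322 was then 3.19-fold lower. With normexp background correction, which draws dim and bright signals together, it was 1.83-fold lower and no longer past 2-fold. The median difference of the miRNAs detected on both arrays was 0.20 in the main setting and lay between -0.31 and 0.24 over the 13 alternatives. Relative to that median miR-322 lay at -1.37, and between -1.45 and -0.96 over the alternatives.

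The hairpin of miR-322 (RefSeq, Mir322, GRCm38.p6, minus strand) is shown with its 5′ and 3′ products in capitals, because the array also read the 3′ product, miR-322*.
Mir322: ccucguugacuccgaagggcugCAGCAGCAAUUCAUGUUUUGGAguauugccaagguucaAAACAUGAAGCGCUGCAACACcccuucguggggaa
No miR-322* probe was detected at either stage. Its brightest probe, with a 14-base stretch, gave 4.71 ± 0.930 (SD, 5 spots) at day 2-4, with 2 of 5 spots well above background. The late value was 2.70 ± 1.52 (SD, 5 spots), with none of the 5. The 5′ and 3′ products cannot be compared in amount, since different probes differ in brightness for reasons other than abundance and the stretches of miR-322* were 11 to 14 bases long.

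miR-503, the second member with a miR-15/16-like seed, went from a clear early signal to one not well above background. Its probe with the 16-base stretch gave 27.1 ± 1.48 (SD, 9 spots) at day 2-4, from 25.2 through 27.0 to 29.8, and 9 of 9 spots were well above background. At day 8-10 the probe gave 3.99 ± 0.783 (SD, 10 spots), from 2.77 through 3.85 to 5.19, with none of 10 spots well above background. The collections did not overlap on this probe, and the scanner software flagged 2 of the 10 late spots as in its negative control range. The probe with the 15-base stretch was detected at neither stage, at 4.71 ± 0.468 (SD, 7 spots) and 0.431 ± 1.04 (SD, 10 spots). Its kept early spots, from 4.26 to 5.61, also lay above all its late spots, from -1.73 to 2.10. This held only without outlier spots. Of the 3 early ones left out, that at 1.89 lay inside the late range and those at 2.22 and 7.34 above it.

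The late signal of miR-503 is only a limit, taken as the lowest detected probe of that array. It follows from the detection rule used here, since the scanner software's gene flag was still set for miR-503 at day 8-10. Against this limit miR-503 was at least 4.28-fold higher at day 2-4. Of the 11 miRNAs detected only at day 2-4, miR-503 was the single one, 9.09%, with a limit of at least 2-fold. The value rests on 1 of its 2 probes, and with normexp background correction the bound was only 1.28-fold. In the main setting this bound exceeded the 2.25-fold difference of miR-322. The difference of miR-322 minus that of miR-503 was 0.93 on the log2 scale. It had the opposite sign in 1 of 13 alternatives, normexp background correction, at -0.52. Whether this order exceeds the variation between preparations was not tested.

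miR-351, which carries the miR-125 seed and lies in the same long noncoding RNA gene, was measured only through its longest stretch. The probe with the 16-base stretch gave 6.71 ± 1.10 (SD, 5 spots) at day 2-4, from 5.20 through 7.03 to 8.11, with 4 of 5 spots well above background. The late value was 0.182 ± 1.90 (SD, 5 spots), from -2.18 through -0.518 to 2.68, and the software flagged all 5 spots as in its negative control range. The spots did not overlap, yet the early signal was so near the limit that the fold had a bound of only 1.06 (higher at day 2-4). The probes with stretches of 13, 14 and 15 bases averaged between -0.056 and 0.884 at day 2-4 and between 0.082 and 0.942 at day 8-10, all undetected. With normexp background correction no bound remained for miR-351.

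Of the miR-542 arms, the 5′ product was detected at both stages and the 3′ product at neither. For miR-542-5p the probe with the 19-base stretch gave 7.64 ± 0.710 (SD, 5 spots) at day 2-4, from 6.74 through 7.54 to 8.60. In the late collection it gave 6.25 ± 2.07 (SD, 5 spots), from 4.39 through 5.53 to 9.72. The spots overlapped, and the log2 difference of -0.10 (spot SE 0.22) was smaller than its spot error. miR-542-3p gave 2.97 ± 1.16 (SD, 10 spots) at day 2-4 and 3.66 ± 1.56 (SD, 10 spots) at day 8-10 on its 22-base stretch, with 0 and 1 spots well above background. Its 21-base stretch gave 2.12 ± 0.993 and 2.32 ± 1.08 (SD, 10 spots each), so neither probe separated the collections.

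The miR-450 products lay at the same edge. miR-450a-5p on its 20-base stretch gave 6.91 ± 1.05 (SD, 9 spots) at day 2-4, from 4.46 through 6.95 to 8.16, with 8 of 9 spots well above background. At day 8-10 it gave 3.17 ± 1.49 (SD, 10 spots), from 1.23 through 2.90 to 5.16, with none of 10. The spots overlapped in part, and the bound was 1.09-fold higher at day 2-4, and none remained under normexp background correction. For miR-450a-3p the probe with the 19-base stretch gave 5.64 ± 1.40 (SD, 5 spots) at day 2-4, from 4.45 through 5.35 to 8.00, and 5.56 ± 0.403 (SD, 5 spots) at day 8-10, from 5.16 through 5.51 to 6.14. These spots overlapped, 3 of 5 were well above background on each array, and the log2 difference was 0.17 (spot SE 0.17), with the opposite sign in 5 of 12 alternatives. The remaining products of the cluster with entries on the array, miR-322*, miR-503*, miR-450b-5p and miR-450b-3p, were detected at neither stage by the rule used here (0 of 4). The scanner software's gene flag was set only for miR-322*, at day 2-4. The probe means of miR-503*, miR-450b-5p and miR-450b-3p lay between -1.01 and 2.48 over both arrays.

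The probes of a member did not read it equally. At day 2-4 the longest stretch was the brightest for 5 of the 6 detected members, and for 136 of 153 detected mouse miRNAs with stretches of different length (88.9%). At day 8-10 it was so for 2 of the 3 detected members and for 88.3% of 163 miRNAs. The exception at both stages was miR-450a-3p, whose 20-base stretch gave 4.05 ± 1.67 and 3.13 ± 1.25 (SD, 5 spots each), below its 19-base stretch. For miR-503, 1 more base went with a rise from 4.71 to 27.1 at day 2-4. miR-322 was read over 21 or 22 bases of its 22, whereas miR-503 was read over 15 or 16 of 23 and miR-351 over 13 to 16 of 24. Levels of different members are therefore not ranked.

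**Figure D2:**
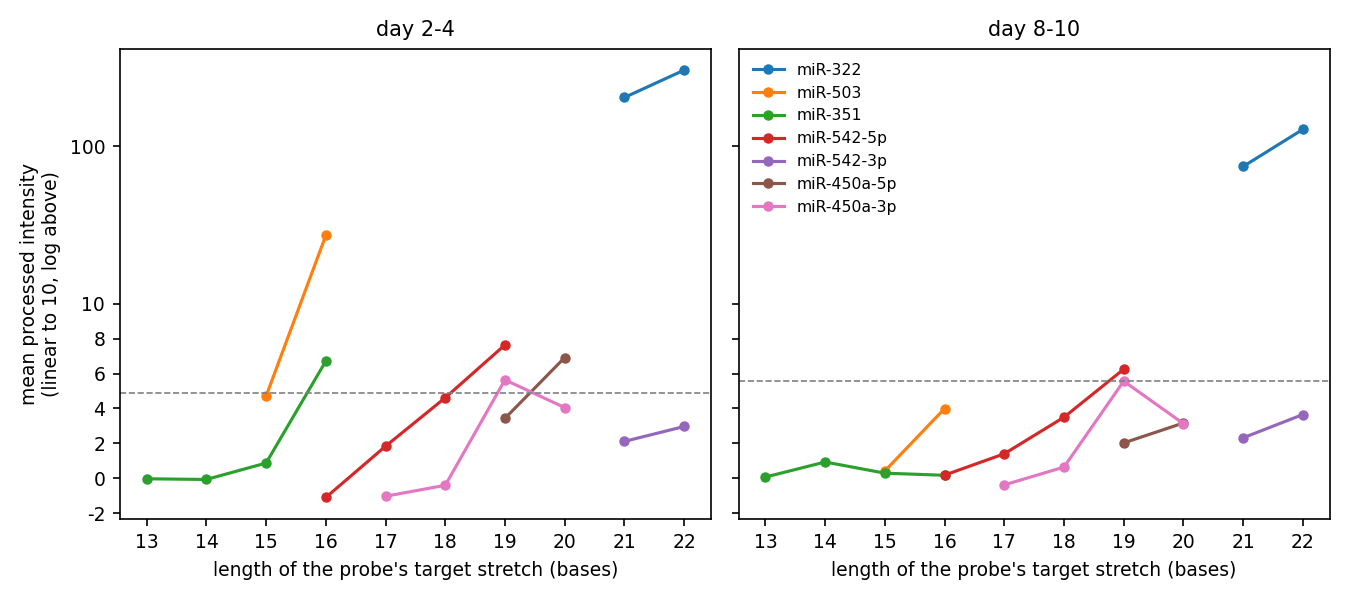
Mean processed intensity of each probe (linear axis up to 10, log above) against the length of its target stretch in bases, at day 2-4 (left) and day 8-10 (right), with lines joining the probes of a member. Dashed lines mark the lowest detected probe of each array. Signals rise toward the longest stretch for most members, and miR-450a-3p falls from 19 to 20 bases.

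miR-322 had a lower difference than each of the 4 miRNAs of the miR-15/16 list detected on both arrays, a comparison within arrays that dividing an array by a constant cannot change. miR-16 had a log2 difference of 0.20 (spot SE 0.019), miR-15a of 0.99 (spot SE 0.027), miR-497 of 1.05 (spot SE 0.12, 1 of its 2 probes in use) and miR-15b of -0.58 (spot SE 0.022). miR-195 passed the detection limit in the late collection alone, where it was at least 1.55-fold higher. In this list of 5, 1 of the 4 detected on both arrays was at least 2-fold higher (miR-497) and none lower. Over all miRNAs detected on both, 16.6% were higher and 8.28% lower. The median of the 4 was 0.59 beside 0.20 over all miRNAs detected on both. The difference of miR-322 minus that of miR-16 was -1.37 on the log2 scale (2.58-fold), and lay between -1.38 and -0.996 over the 13 alternatives. Against miR-15a it was -2.16, with alternatives from -2.16 to -1.38. Against miR-497 it was -2.22, with alternatives from -2.23 to -1.09. miR-497 itself lay near the edge of detection. Its 20-base stretch gave 5.19 ± 1.01 at day 2-4, with 6 of 10 spots well above background, and 9.45 ± 1.62 at day 8-10 (SD, 10 spots each). Where every spot had to be well above background miR-497 was detected at day 8-10 only, so that alternative gives a bound. The distance to miR-15b, which also had a negative difference, was smaller at -0.59, and came to -0.12 with quantile normalization. The differences of miR-15a, miR-195 and miR-497 stayed positive and that of miR-15b negative in all 13 alternatives, while that of miR-16 turned negative in 3. miR-497 fell below 2-fold in most of them, with a lowest log2 difference of 0.22 under normexp background correction. With the percentile over all probes none of the list was at least 2-fold higher and 1 was lower. No error between arrays is available for these values, so whether any of them exceeds the variation between preparations was not tested.

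Both miRNAs of the miR-125 list, which share the seed of miR-351, were detected at both stages. miR-125b-5p had a log2 difference of -0.26 (spot SE 0.031) and miR-125a-5p of 0.35 (spot SE 0.036), both within 2-fold. The difference of miR-125a-5p turned negative in 2 of 13 alternatives. miR-351 itself, with a bound near 1, could not be placed beside them.

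**Figure D3:**
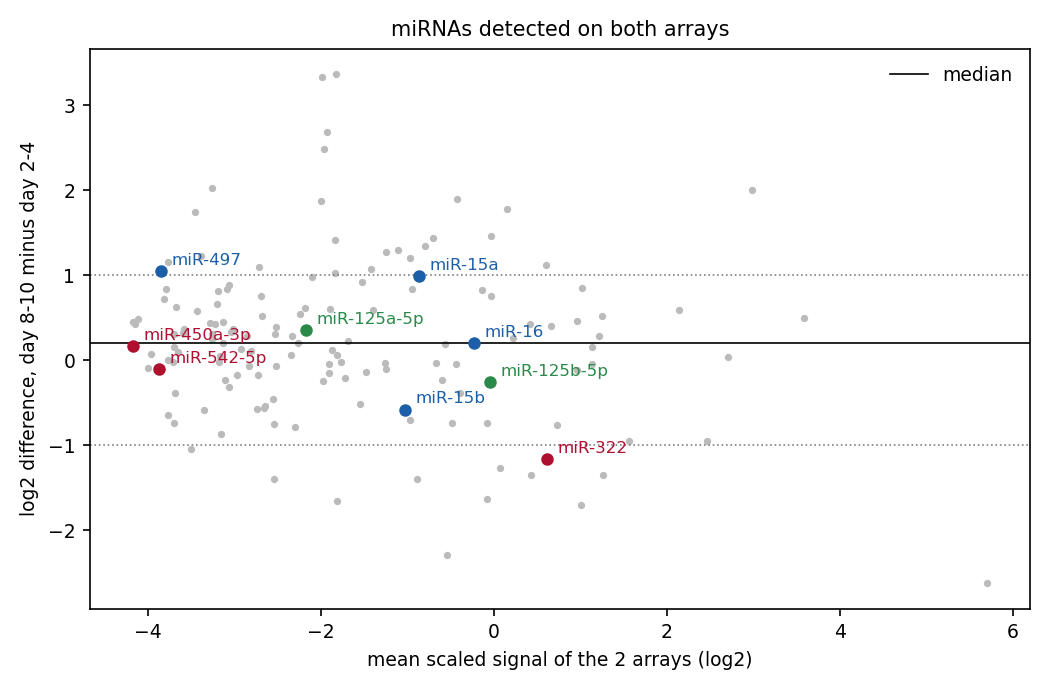
Log2 difference between day 8-10 and day 2-4 against the mean scaled log2 signal for the miRNAs detected on both arrays, with members of the cluster in red, seed partners of miR-322 in blue and those of miR-351 in green. The solid line is the median (0.20) and dotted lines mark 2-fold; miR-322 lies below the lower dotted line at -1.17, and miR-15a and miR-497 lie near the upper one.

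On the X chromosome as a whole, no other miRNA measured at both stages had as low a difference as miR-322, in the main setting and in all 13 alternatives. Of 70 other entries placed on that chromosome, 13 were detected on either array and 11 on both. Of the 11, none was at least 2-fold lower, beside 8.28% of all miRNAs detected on both arrays. At least 2-fold higher were 2 (miR-718 at 3.34-fold and the let-7 relative miR-98 at 2.34-fold), beside 16.6% of all. Counts this small lie near those shares and do not set the chromosome apart. The median log2 difference of the 11 was 0.14. The lowest of them was miR-188-5p at -0.77. With the percentile over all probes the median of the 11 turned to -0.37, and miR-188-5p and miR-221 were at least 2-fold lower. The margin between miR-322 and the lowest of them was -0.40 in the main setting and -0.093 with quantile normalization. miR-361 (-0.45) and miR-221 (-0.57) were also negative, miR-20b (0.43) and miR-500 (0.33) positive, and miR-652 (-0.17), miR-672 (0.14), miR-224 (0.20) and miR-223 (-0.23) lay closer to 0. The remaining pair was detected at day 8-10 only, where miR-362-3p was at least 1.44-fold and miR-452 at least 1.83-fold higher.

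The patterns most like each member were taken as the 3 smallest distances in the pair of scaled log2 signals, among miRNAs detected on both arrays. For miR-322 they were miR-483 (distance 0.29, log2 difference -1.34), miR-188-5p (0.33, -0.77) and miR-370 (0.67, -1.70). For miR-542-5p they were miR-546, miR-181b and miR-697, at distances of 0.17 each. For miR-450a-3p they were miR-877*, miR-294 and miR-770-3p, at 0.19, 0.20 and 0.25. The likeness rests on 2 arrays and on signals of different probes.

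Marker miRNAs were read on the same arrays. They were named after their values were seen, so they describe the collections and do not check the label. All 6 adipocyte-associated miRNAs (miR-103, miR-107, miR-143, miR-148a, miR-378 and miR-30c) were detected at both stages. At day 8-10, 5 of them were at least 2-fold higher, beside 16.6% of all miRNAs detected on both arrays. The number was 2 with the percentile over all probes or with normexp. The exception was miR-143 (log2 difference 0.76), and miR-30c passed narrowly at 2.03-fold. The summed scaled signal of the 6 was 2.25 at day 2-4 and 6.63 at day 8-10. Of 5 fibroblast and mesenchymal miRNAs on the array 4 were detected, all but miR-145, and 2 of them, miR-214 (-1.63) and miR-199a-5p (-1.39), were at least 2-fold lower at day 8-10, beside 8.28% of all miRNAs detected on both arrays. miR-199b had a log2 difference of -0.95 and miR-22 one of the opposite sign, 0.59. The number at least 2-fold lower was 1 with normexp and 3 with the percentile over all probes, and miR-22 stayed positive in all 13 alternatives. Their summed scaled signal was 10.2 at day 2-4 and 8.41 at day 8-10, and their part in the loss of miR-322 was not tested. Of 4 blood and serum miRNAs 3 were detected at day 2-4 and 4 at day 8-10, with summed signals of 6.73 and 6.94. None of the 4 muscle miRNAs nor the liver miR-122 was detected, and of 3 neural miRNAs miR-128 alone was.

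**Figure D4:**
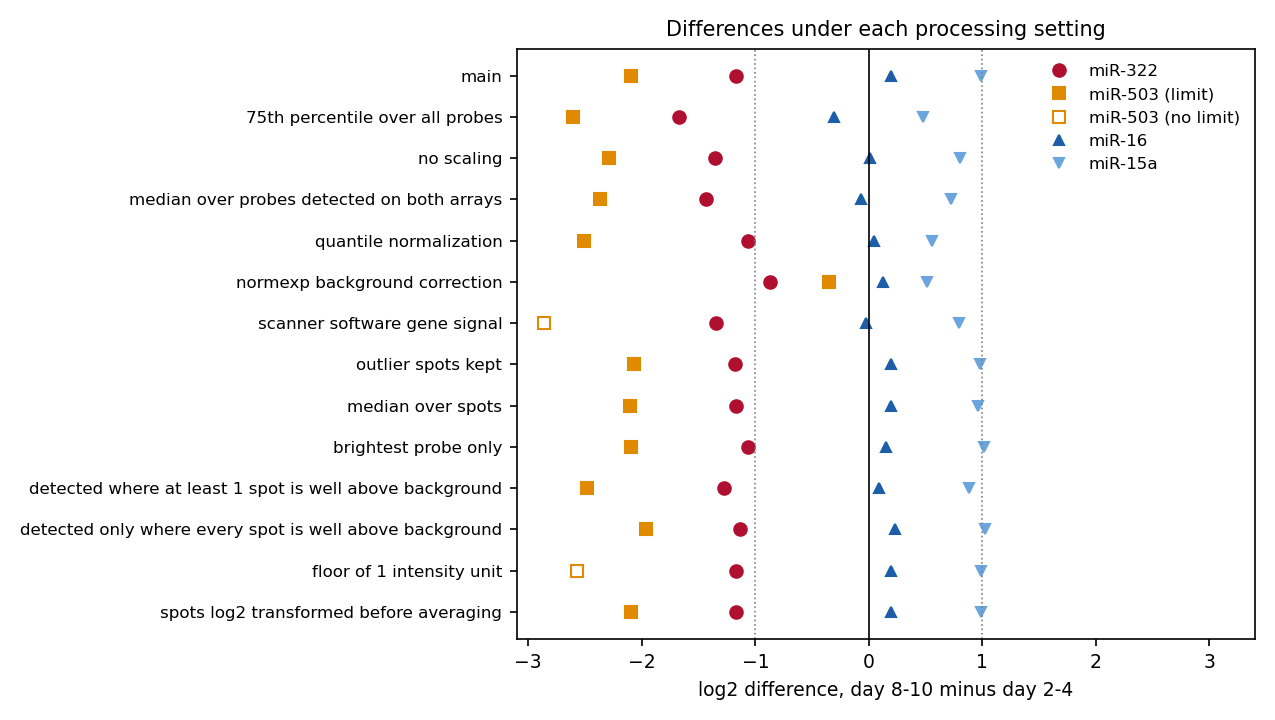
Log2 difference between day 8-10 and day 2-4 of miR-322, miR-503 and the seed partners miR-16 and miR-15a under the main setting and 13 alternatives. By the rule used here miR-503 was not detected at day 8-10, although the scanner software's gene flag was set. Its filled squares are limits, and its open squares are ratios to that late signal. miR-322 stays between -1.68 and -0.87, the limits of miR-503 between -2.61 and -0.35, and miR-16 changes sign.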

How the data were processed

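Small RNA of 3T3-L1 vesicles was read on 2 1-colour Agilent arrays, 1 per collection. The deposited values are linear spot intensity values. Agilent Feature Extraction 9.5.3.1 made them, per the file headers, as spot signal minus a fitted background surface and with no scaling between arrays. The deposited flags and the software's gene signal intensity come from the same files per the file headers. The series value table equalled the processed intensity for 12493 of 12493 spots on each array. Control spots and outlier spots (237 and 249) were left out, and spots were averaged per probe. Arrays were divided by the 75th percentile over 279 probes detected on both, floored at the lowest detected probe (4.86 and 5.55) and log2 transformed. Probes detected on either array were averaged per miRNA. Spot standard errors follow from spot SDs. Higher or lower means detected on both arrays, at least 2-fold and over 2 spot standard errors. The calculation was run on simulated arrays made from the day 2-4 values, with spot noise and planted changes larger than that of miR-322. The simulation held no scale difference or preparation effect, so it does not bear on calls near 2-fold, on scaling or on preparations. Alternatives used limma 3.58.1 (normexp, offset 50), other scalings, detection rules, floors and summaries. All 7 members, other products of the cluster, both seed lists, the 3 nearest patterns and all 13 detected miRNAs of chromosome X (the rule set at most 10) are named; marker miRNAs were named after their values were seen. The members and lists were chosen with earlier results of these data known. Figures were drawn with matplotlib 3.10.9.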

Additional observations from a re-analysis of the deposited data

How the results depend on the processing

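The log2 difference of miR-322 was negative in 13 of 13 alternatives. It was -1.68 with the 75th percentile over all probes, -1.35 with no scaling, -1.43 with the median over probes detected on both arrays, -1.07 with quantile normalization, -0.87 with normexp background correction, -1.34 with the scanner software's gene signal, -1.06 with the brightest probe only and -1.28 where 1 spot sufficed for detection. The number of members at least 2-fold lower, and by over 2 spot standard errors, was 1, and 0 with normexp background correction. The cause was not tested. Where 1 spot sufficed 5 members were detected at day 8-10, and where every spot had to pass 3 were at day 2-4 and 1 at day 8-10. Where 1 spot sufficed miR-351 was also detected on both arrays and 2.08-fold lower, but not by over 2 spot standard errors. Its late detection rested on 1 spot. The limit of miR-503 ranged from -2.61 (75th percentile over all probes) to -0.35 (normexp). The software gene signal (-2.86) and the floor of 1 intensity unit (-2.57) gave ratios to its late signal and no limit. That signal was undetected by the rule used here, although the software's gene flag was set. With a floor of 1 intensity unit the differences of miR-351 and miR-450a-5p were -2.56 and -0.94, also no limits. With normexp no bound remained for either. The sign of miR-542-5p turned in 1 alternative, normexp, and that of miR-450a-3p in 5 of 12. Averaging log2 values of spots was added after seeing the data. No paired analysis was possible because each stage has 1 array. Signals of most members within a few units of background limit what these arrays show.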
